A study of Mus musculus with 8 samples.

Results

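Vcam1-positive fibro/adipogenic progenitors (FAPs) without Cxcl9 were taken from single-cell RNA counts of sorted muscle FAPs. A member was a cell barcode with at least 500 genes, at most 10% of its unique molecular identifiers (UMIs) from mitochondrial genes and at least 1 Pdgfra UMI. It also had at least 1 Vcam1 UMI and 0 UMIs of Cxcl9, C1qtnf3, Dpp4 and Gdf10. There were 111 members among 1533 wild type barcodes that passed the filter (2073 deposited) and 154 among 1435 knockout barcodes (1724 deposited). They were set against barcodes of the same library that passed the filter with 0 UMIs of all 5 genes, 543 for the wild type and 259 for the knockout, called comparison barcodes below. The wild type cells came from 8-month-old female C57BL/6 mice and the others from 8-month-old female dysferlin KO mice, with no treatment labelled. The strain tag of the knockout reads BLA/J while the protocol writes B6A/J, so the group is called the dysferlin knockout. Live PDGFRα-positive cells were sorted from digested hindlimb muscle, and droplet libraries were made with a 10x Genomics 3′ kit. Each group has 4 labelled samples but 1 deposited matrix with no map from barcodes to samples, so each is 1 library. There is then no replicate check and no test between or within groups, and every interval below covers counting error only.

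FAPs are PDGFRα-positive stromal cells that lie between muscle fibres, make matrix and can turn into adipocytes or matrix-producing fibroblasts. VCAM1 is a cell-surface adhesion molecule of the immunoglobulin family. It binds the integrin α4β1 on leukocytes, and tumour necrosis factor and interleukin 1 induce it through NF-kB. In muscle it is also carried by satellite cells and activated endothelium, and a Vcam1-marked FAP state is known from injured and dystrophic muscle. Dysferlin is a membrane repair protein of muscle fibres.

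Members were chosen by their UMIs of Vcam1, Pdgfra and the 4 excluded genes, so Vcam1 is given as a description. Vcam1 (ENSMUSG00000027962) lies on chromosome 3, 116109949 to 116129688 on the minus strand (GRCm38). The wild type members held 187 Vcam1 UMIs and the knockout members 299. Both come to 161 CPM (the UMIs of a gene summed over the barcodes of a group, for every 1000000 UMIs of that group). Most members sat just inside the rule. Exactly 1 Vcam1 UMI was seen in 78 wild type members (70.3%, exact Clopper-Pearson 95% interval 60.9 to 78.6) and in 90 knockout members (58.4%, 50.2 to 66.3). At least 3 UMIs were seen in 18 wild type members (16.2%) and 34 knockout members (22.1%), with highest values of 9 and 16. Just outside the rule lie the comparison barcodes, at 0. A barcode at the median depth of the wild type members gives 101 CPM from 1 UMI, so the edge of the rule is close to the limit of detection.

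Members were more deeply sequenced than the barcodes they are set against. The median was 9867 UMIs in wild type members against 7428 in comparison barcodes, and 11397 against 7282 in the knockout. The median mitochondrial share was alike in the 4 groups of barcodes, from 2.83% to 3.36%. The summed depth behind the pooled values was 1160400 UMIs for wild type members, 1855090 for knockout members, 4104448 for wild type and 2153706 for knockout comparison barcodes. No barcode sequence was shared between wild type and knockout members, and 13 were shared among all those deposited.

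FAP markers were present in the members. All 13 FAP identity genes passed the level filter (a mean of at least 20 CPM over the 4 groups of barcodes), and together they made 71413 CPM in wild type and 61906 CPM in knockout members, close to 68708 and 60968 CPM in comparison barcodes. Pdgfra is among the 13, and the sort and the filter required it of every barcode, so its presence is no support. Ly6a, which encodes the stem cell antigen Sca-1, was detected in 95.5% of wild type and 96.1% of knockout members. Cd34 was found in 96.4% and 91.6%. Markers of other cells were near the floor: 7 of 7 T or NK cell genes were at 0 in all 4 groups, 10 macrophage genes summed to 3.45 and 3.77 CPM in members, and 10 endothelial genes to 12.9 and 9.16 CPM. Comparison barcodes held more of both. Their macrophage genes summed to 7.07 CPM (wild type) and 509 CPM (knockout), where 1 barcode carried 99.5% of the Lyz2 UMIs, and their endothelial genes to 50.7 and 97.5 CPM. Some marker sums were higher in members than in comparison barcodes of the same library. The 7 tenocyte genes reached 1118 against 557 CPM in the wild type and 958 against 586 CPM in the knockout, mostly from Thbs4. The wild type sum came from few barcodes: the median barcode was at 0 CPM in both groups and the upper quartile at 299 against 366 CPM. At least 2 tenocyte genes were on 5.41% against 4.97% of wild type barcodes and on 11.7% against 4.63% of knockout ones. The 6 Schwann cell genes reached 97.4 against 44.1 CPM and 44.2 against 22.3 CPM, mostly from S100b. The 9 mural genes summed to 151 against 117 CPM in the wild type and to 127 against 135 CPM in the knockout. Yet at least 2 mural genes were on 20.7% against 10.9% of wild type barcodes and on 19.5% against 10.0% of knockout ones. The median barcode was at 95.4 against 0 CPM in the wild type and at 81.0 against 0 CPM in the knockout. Members were deeper, and the part of depth in these shares was not tested. The part of such cells in the results below was not tested, although counts without barcodes carrying at least 2 markers of another class are given with the processing.

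Members made up a larger share of the knockout library. They were 7.24% of the wild type barcodes that passed (5.99 to 8.65) and 10.7% of the knockout barcodes (9.18 to 12.4). Among barcodes with 0 UMIs of the 4 excluded genes, Vcam1 was seen in 17.0% of wild type (14.2 to 20.1) and 37.3% of knockout barcodes (32.6 to 42.2). The share climbed with depth in both libraries, from 4.62% under 4000 UMIs to 40.7% from 17000 UMIs upward in the wild type, and from 18.3% to 58.1% in the knockout. Within each of 7 depth ranges the knockout share was the higher one, although the intervals overlapped in 4 of them. After every barcode was thinned to 3000 UMIs, members made 4.95% of wild type and 10.3% of knockout barcodes that passed, and 7.67% and 17.8% of those with 0 of the 4 genes. Thinning left out 114 shallower wild type and 69 knockout barcodes, and it also moves barcodes into the class with 0 of the 4 genes.

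**Figure D1:**
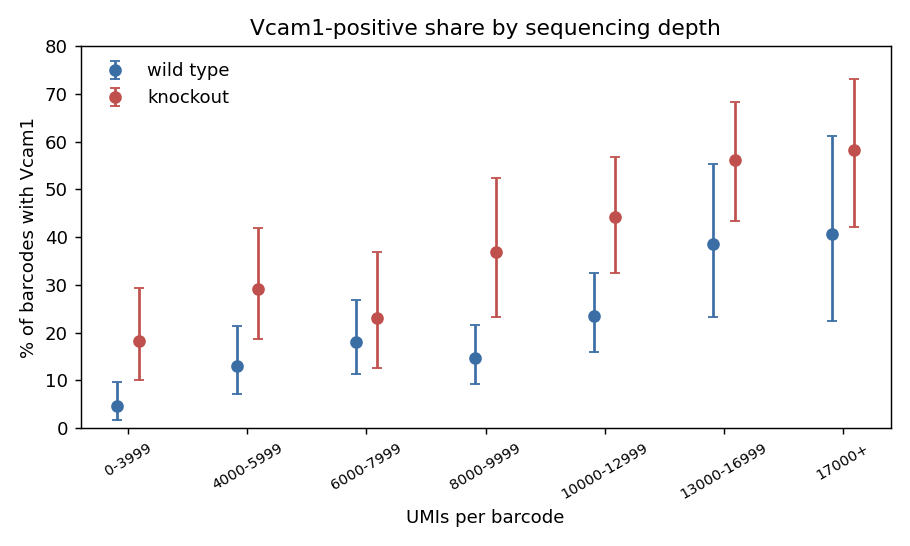
Share of barcodes with a Vcam1 UMI (percent, y axis) among those with 0 UMIs of Cxcl9, C1qtnf3, Dpp4 and Gdf10, in 7 ranges of total UMIs per barcode (x axis), for the wild type and knockout libraries; bars are exact 95% Clopper-Pearson intervals. The share goes from 4.62% to 40.7% in the wild type and from 18.3% to 58.1% in the knockout between the shallowest and the deepest range.

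Free RNA in droplets can place a Vcam1 UMI on a cell that does not express the gene. Among barcodes with no Pdgfra and at least 3 markers of another class, Vcam1 was seen in 0 of 7 wild type T or NK cells (95% upper limit 41.0%) and in 3 of 4 wild type satellite cells, a type that makes VCAM1. It was seen in 3 of 36 wild type endothelial barcodes (8.33%, 1.75 to 22.5, median 3178 UMIs). It was also seen in 1 of 9 wild type mural and 1 of 9 wild type tenocyte barcodes. In the knockout it was seen in 0 of 5 endothelial and 0 of 4 macrophage barcodes, the latter with a median of 24360.5 UMIs. Knockout tenocyte barcodes had it in 3 of 6 (50%, 11.8 to 88.2, median 10438 UMIs). Every other class with such barcodes held at most 3 of them in a library, and none had Vcam1. These counts limit the background poorly, since endothelium can make VCAM1 itself and the upper limits in the knockout were 52.2% (endothelial) and 60.2% (macrophage). After thinning to 3000 UMIs, Vcam1 was seen in 7.43% of all wild type and 17.8% of all knockout barcodes that passed, and neither share lies above the limits of its own library. How many members with 1 UMI carry free RNA was not tested.

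Most Vcam1-positive FAPs were kept out by the 4 excluded genes. In the wild type 150 of 261 (57.5%) carried one of them, with Dpp4 and Gdf10 on 74 barcodes each, C1qtnf3 on 23 and Cxcl9 on 8. In the knockout 510 of 664 (76.8%) carried one, and Cxcl9, an interferon-induced chemokine that attracts T cells, was on 224, Dpp4 on 223, C1qtnf3 on 185 and Gdf10 on 131. Barcodes without Vcam1 were also mostly kept out, 729 of 1272 in the wild type and 512 of 771 in the knockout. Among these, Dpp4 was on 493 and 311, Gdf10 on 261 and 133, C1qtnf3 on 45 and 98, and Cxcl9 on 14 and 118. Among barcodes with any of the 4 genes, Vcam1 was seen in 17.1% of the wild type and 49.9% of the knockout. Among those with 0 of the 4 it was seen in 17.0% and 37.3%. Over all barcodes that passed, Vcam1 was seen in 17.0% of the wild type and 46.3% of the knockout.

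Of 5958 genes over the level filter, 157 were at least 1.5-fold higher in wild type members (2.64%) and 167 at least 1.5-fold lower (2.8%). In the knockout 145 were higher (2.43%) and 235 lower (3.94%). Only 36 genes were higher in both libraries (0.604%), 36 were lower in both (0.604%) and 8 went opposite ways. The median log2 ratio over all genes was 0.01 for the wild type and -0.00 for the knockout. The depth difference bears on these sets. When comparison barcodes were weighted to the depth of the members, 29 genes were higher in both libraries, 22 of them in the first set, and 40 lower, 28 of them in the first set.

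**Figure D2:**
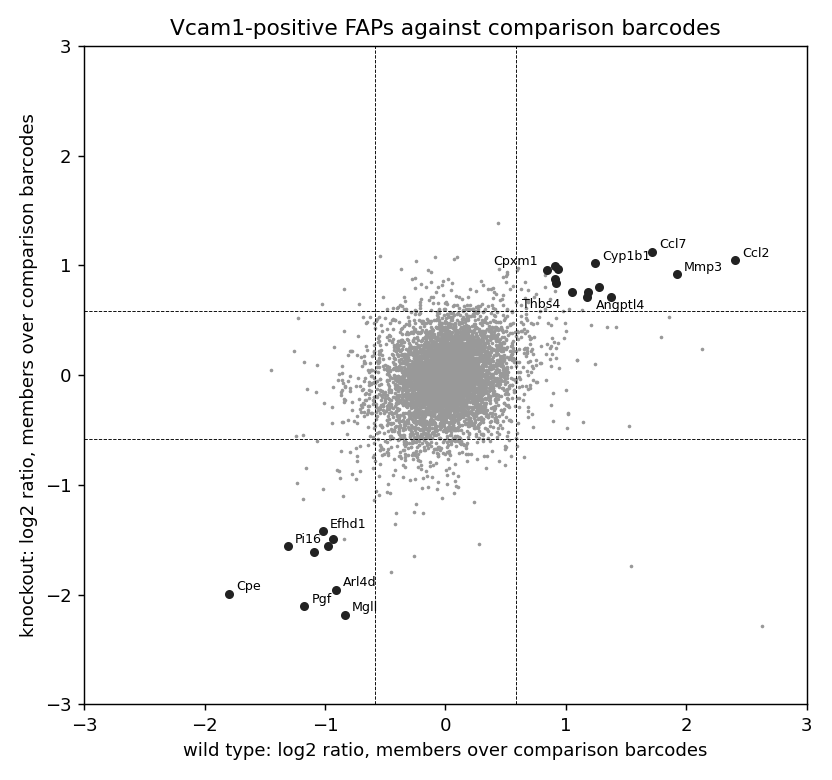
Log2 ratio of pooled CPM, members over comparison barcodes, in the wild type (x axis) and the knockout (y axis) for the genes over the level filter; each point is a gene, black points are the named genes that passed 1.5-fold (dashed lines) in both libraries, and 9 genes outside the range or without a ratio are not drawn. Mmp3, Ccl2 and Ccl7 lie at the upper right and Pi16, Cpe, Pgf and Mgll at the lower left.

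Some genes of matrix turnover were among those higher in both libraries, but most genes of the matrix lists were not. Of 22 measured matrix proteases and inhibitors, 1 was higher in both, with list medians of 0.28 and 0.06. In the wild type 4 of them were higher, and in the knockout 3 were higher and 2 lower. Of 23 matrix glycoproteins, none was higher in both and 1 was lower in both, with medians of 0.11 and -0.11. Mmp3, stromelysin 1, a secreted protease that cuts proteoglycans and activates other matrix proteases, stood at 118 CPM in wild type members against 31.2 CPM in comparison barcodes, and at 417 against 221 CPM in the knockout. The log2 ratio was 1.92 (95% interval 1.56 to 2.28) and 0.92 (0.75 to 1.09). It was detected in 19.8% against 8.66% of wild type barcodes and in 53.2% against 35.1% of knockout barcodes. Within the wild type members, Mmp3 stood at 264 CPM in members with at least 2 Vcam1 UMIs and at 30.3 CPM in members with 1, the level of comparison barcodes.

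Mmp3 (ENSMUSG00000043613, chromosome 9, 7445822 to 7455975, plus strand) is shown with its upstream sequence because it is the only named higher gene whose window held a searched motif. Windows upstream of the start were read for 8 of the 14 named higher genes and 8 of the 10 named lower genes from RefSeq (GRCm38.p6). They were searched on both strands for an NF-kB motif (GGGNNTTCC) and an AP-1 motif (TGANTCA), which share no match here. For the lower genes Pi16 and Pgf the RefSeq start lay 1202 and 477 bases inside the annotated gene, so their windows fell within it. In the 250 bases upstream of Mmp3, chr9:7445572-7445821, capitals mark the AP-1 match.
Mmp3 upstream: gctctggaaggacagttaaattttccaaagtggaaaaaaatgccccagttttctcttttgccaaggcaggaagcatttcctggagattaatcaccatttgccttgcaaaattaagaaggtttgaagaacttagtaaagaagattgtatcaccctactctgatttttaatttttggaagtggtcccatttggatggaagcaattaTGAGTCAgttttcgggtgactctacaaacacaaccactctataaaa
Among the named lower genes, Galnt15 held a match to each motif. The NF-kB motif was in 4.98% of 32851 RefSeq windows of this length and the AP-1 motif in 6.75%. A match is a description of the letters and not a binding site.

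Cpxm1, a secreted carboxypeptidase-like protein of matrix-producing fibroblasts, stood at 176 against 97.9 CPM in the wild type and at 583 against 300 CPM in the knockout, with log2 ratios of 0.84 (0.59 to 1.09) and 0.96 (0.82 to 1.10), and it was found in 85.1% of knockout members against 57.5% of comparison barcodes. Thbs4, a thrombospondin of tendon and injured muscle, stood at 1077 against 520 CPM and at 926 against 547 CPM. A single barcode held 34.1% of the wild type members' Thbs4 UMIs, and without each gene's top barcode Thbs4 was no longer 1.5-fold higher in both libraries. Cdh11, a fibroblast cadherin, was at 35.3 against 18.8 CPM and 66.3 against 36.2 CPM. The Cdh11 call was lost in the knockout with no condition on the 4 genes (log2 0.44) and without barcodes carrying at least 2 markers of another class (0.49), and in the wild type with equal barcode weights (0.53). The 16 collagen genes leaned the same way with smaller steps: their median log2 ratio was 0.42 for the wild type and 0.20 for the knockout, 1 passed 1.5-fold in the wild type and none in the knockout. That one was Col3a1, a fibrillar collagen, at 5533 against 3652 CPM and 9895 against 7867 CPM (log2 0.60 and 0.33). Sparc, a collagen-binding matrix protein, was at log2 0.62 and 0.48.

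Some genes of lipid and small-molecule metabolism, picked from the named genes with no list or test of that theme, were higher as well. Apoe, a lipid carrier, stood at 815 against 483 CPM in the wild type and 510 against 306 CPM in the knockout (log2 0.75 and 0.73). Angptl4, a secreted inhibitor of lipoprotein lipase, stood at 168 against 73.8 CPM and 126 against 74.8 CPM (1.19 and 0.75). Lpl, the lipase itself, stood at 1739 against 874 CPM (0.99, 0.91 to 1.07), while its knockout ratio of 0.48 was under the 1.5-fold line. Cyp1b1, a cytochrome P450 of steroid and xenobiotic metabolism, was found in 37.8% of wild type members against 17.3% of comparison barcodes and in 44.2% against 21.6% of the knockout ones, with log2 ratios of 1.24 (0.85 to 1.63) and 1.02 (0.62 to 1.43). Without barcodes carrying at least 2 markers of another class the wild type ratio of Cyp1b1 was 0.41, under the 1.5-fold line. Hpgd, which inactivates prostaglandins, was at log2 0.92 and 0.84. Among 9 measured adipogenic regulators 3 were higher and 0 lower in the wild type, and 1 was higher and 1 lower in the knockout. Apoe was the single gene higher in both libraries, and the list medians were 0.19 and 0.08. Mgll, which breaks down monoacylglycerols, went the other way, at -0.83 and -2.19.

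Secreted signals were led by chemokines, on few barcodes. Of 8 measured chemokines and cytokines, Ccl2, Ccl7 and Ccl8, which attract monocytes, were higher in both libraries, and the list medians were 0.44 and 0.49. Ccl2 stood at 54.3 against 10.2 CPM in the wild type and 270 against 130 CPM in the knockout, yet it was found in 4.50% of wild type and 7.79% of knockout members. A single barcode held 66.7% and 55.0% of the members' UMIs, and 54.8% and 88.3% of those in comparison barcodes. Without barcodes above the 98th percentile of UMIs the knockout log2 ratio of Ccl2 turned to -2.08 and that of Ccl7 to -0.17. Ccl8 turned to -0.01 when barcodes were weighted equally. Cxcl14, a stromal chemokine on 84.7% of wild type and 90.3% of knockout members, was more evenly spread, at 3540 against 2162 CPM and 3373 against 2426 CPM (log2 0.71 and 0.48). Mdk, the growth factor midkine, stood at 128 against 66.8 CPM and 169 against 86.4 CPM, with ratios of 0.93 (0.64 to 1.23) and 0.97 (0.70 to 1.24).

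**Figure D3:**
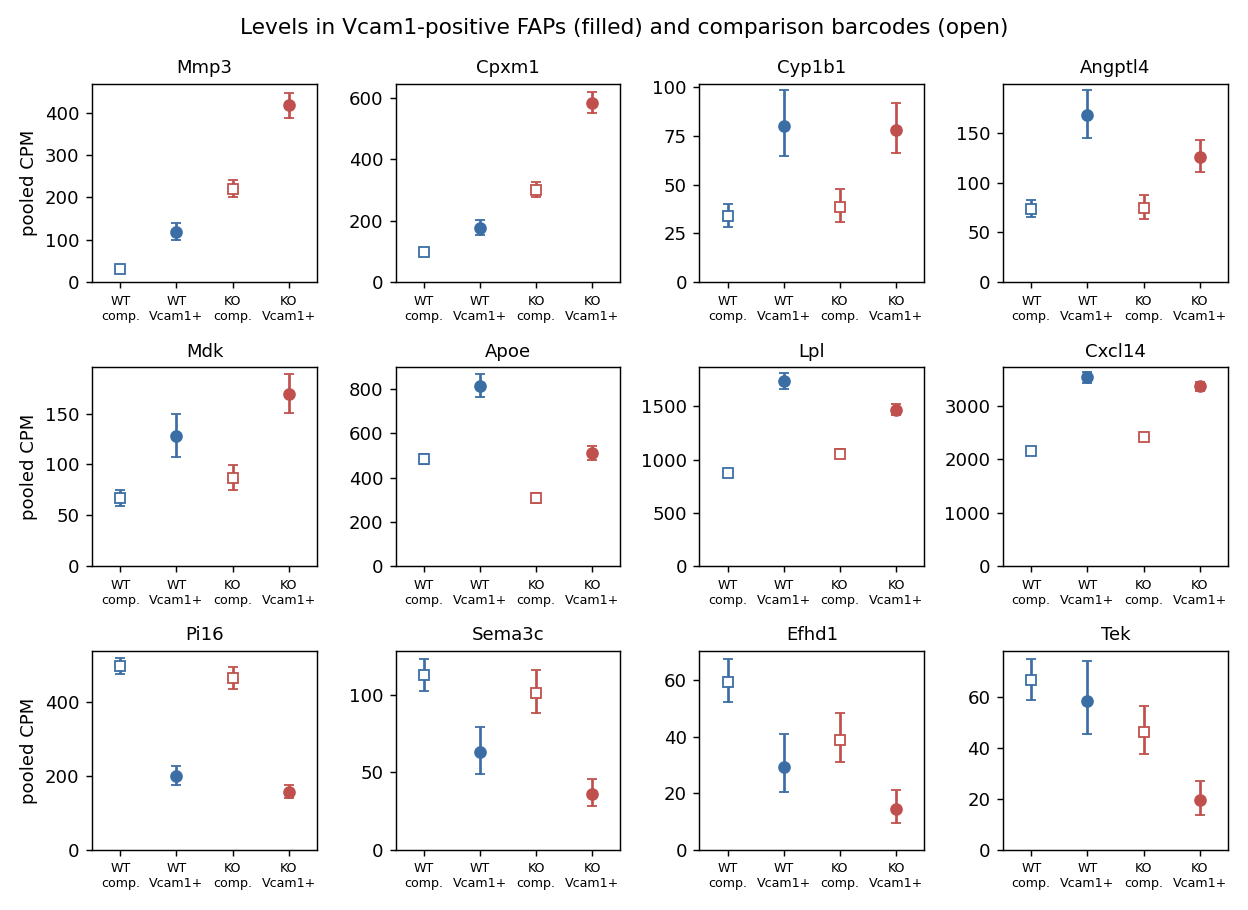
Pooled CPM (y axis, linear, from 0, with its own range for each gene) of 12 genes in members (filled circles, Vcam1+) and comparison barcodes (open squares) of the wild type (WT, blue) and knockout (KO, red) libraries; bars are exact 95% Poisson intervals. Mmp3 goes from 31.2 to 118 CPM in the wild type and from 221 to 417 CPM in the knockout, and Pi16 from 495 to 200 CPM and from 463 to 157 CPM.

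The remaining named higher genes were Gm2564, Ifit1, S100b and Cdc14a. S100b, a calcium-binding protein best known from glia, was at log2 0.91 and 0.99, and Cdc14a, a phosphatase, at 1.17 and 0.72. Both calls were lost in the knockout with at least 2 Vcam1 UMIs (0.44 and 0.47) and with no condition on the 4 genes (0.07 and 0.38), and that of Cdc14a with equal barcode weights (0.41). Gm2564 was at 1.37 and 0.71, and at 0.28 in the knockout against depth-matched comparison barcodes. Ifit1, an interferon-induced RNA-binding protein, was at 1.27 and 0.80, with 56.1% of the wild type members' UMIs on a single barcode. It has close copies, so its reads may be shared with them.

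The progenitor programme marked by Pi16 was lower in members. Pi16, a marker of the least committed fibroblasts, stood at 200 against 495 CPM in the wild type and 157 against 463 CPM in the knockout, with log2 ratios of -1.31 (-1.51 to -1.11) and -1.56 (-1.75 to -1.37). The share of barcodes with Pi16 differed by less, at 45.9% against 52.1% and 49.4% against 58.3%. Sema3c, a secreted guidance molecule, stood at 62.9 against 113 CPM and 36.1 against 102 CPM (-0.84 and -1.49). Efhd1, a mitochondrial calcium-binding protein, was at -1.02 and -1.42. Of 7 measured genes of the 10 on the Pi16 progenitor list, these 3 were lower in both libraries and none was higher in either. The list's median was -0.84 for the wild type and -1.07 for the knockout. Dpp4, which defines the same state, was 0 in both groups by the rule.

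The other named lower genes included Tmem100, a membrane protein, at 80.1 against 158 CPM and 55.0 against 162 CPM (log2 -0.98 and -1.56). Pgf, a vascular growth factor, was at -1.17 and -2.11, and Cpe, a prohormone-processing carboxypeptidase, at -1.80 and -1.99. Mustn1 was at -1.09 and -1.61, Arl4d at -0.91 and -1.95, and Galnt15, a glycosyltransferase, at -0.93 and -1.50. Cpe, Pgf, Mgll and Arl4d rest on 8, 7, 14 and 6 UMIs in the knockout members, and with equal barcode weights the wild type ratio of Arl4d was -0.46, under the 1.5-fold line. Hba-a1, alpha globin, was at -6.87 and -1.37, and a single barcode held 99.4% of its UMIs in the wild type comparison barcodes. Cd34 was lower by less, at log2 -0.38 and -0.54.

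Of 15 measured TGF-beta genes, Inhba, an activin subunit, and Tgfbi, a matrix protein induced by TGF-beta, were lower in both libraries. Inhba stood at 18.1 against 41.2 CPM and 22.6 against 49.7 CPM, Tgfbi at 325 against 491 CPM and 224 against 345 CPM. The list medians were -0.20 and -0.33. Thbs1, a thrombospondin that activates latent TGF-beta, was at log2 -1.23 (-1.61 to -0.87) and -0.98 (-1.26 to -0.72). Of 20 measured immediate early genes, Nr4a1 alone was lower in both libraries, at -0.88 in each, and it turned to 0.10 in the wild type with no condition on the 4 genes. The medians of that list were -0.13 and -0.17.

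Genes of the NF-kB route to Vcam1 were close to the comparison barcodes. Of 11 measured NF-kB genes, none was higher in either library and Nfkbiz and Tnfaip2 were lower in the wild type. The list medians were 0.00 and -0.17. Nfkb1, a subunit of NF-kB, stood at 76.7 against 65.8 CPM and 69.5 against 72.4 CPM, and Nfkbia, its inhibitor and target, at 421 against 359 CPM and 162 against 183 CPM. Irf1, a transcription factor of the interferon response, was at log2 -0.21 and 0.12, each interval spanning 0. Of 12 measured cytokine receptors, Il1r1 and Ltbr, receptors of interleukin 1 and lymphotoxin, were higher in the wild type, at 0.91 (0.57 to 1.25) and 0.75 (0.29 to 1.20). Neither passed in the knockout, where they were at 0.25 and 0.09.

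Among other adhesion genes the values went both ways. Icam1, the adhesion molecule that often accompanies VCAM1 on activated endothelium, stood at 78.4 against 62.9 CPM in the wild type and 79.2 against 98.9 CPM in the knockout (log2 0.32 and -0.32). Of 12 measured adhesion molecules, Cdh11 was higher and Cadm3 lower in both libraries, the latter at -1.16 and -0.84. None of 7 measured integrins passed 1.5-fold. Itgb1, the β1 chain of the VCAM1 receptor, was at 0.01 and -0.06. Itga4, its α4 chain, had 0 UMIs in members, and a count of 0 leaves room for 2.59 CPM (wild type) or 1.62 CPM (knockout). Adam17, the protease that sheds VCAM1, was at 0.04 and -0.27.

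Tek, which encodes the receptor Tie2, had unlike ratios in the libraries. It stood at 58.6 against 66.5 CPM in the wild type, log2 -0.18 (-0.59 to 0.21), and at 19.4 against 46.4 CPM in the knockout, log2 -1.26 (-1.85 to -0.70). Knockout members carried it on 16.9% of barcodes against 25.9% of comparison barcodes. With 1 library per group the difference between these ratios was not tested.

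Of 18 measured interferon response genes, Ifit1 and Ifit3 were higher in members of both libraries, and the medians were 0.04 and 0.20. Among 8 measured class I MHC genes, H2-D1 alone passed 1.5-fold, in the knockout (log2 0.60). H2-K1, a class I heavy chain with close copies, was at 0.48 and 0.50, and B2m, the shared light chain, at 0.40 and 0.39. Cfb, complement factor B, was higher in both, at 105 against 68.2 CPM and 372 against 239 CPM, but another gene overlaps it and its reads may be shared. Of 7 measured contractile genes, Myl9 was higher in both, at 0.60 and 0.98.

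**Figure D4:**
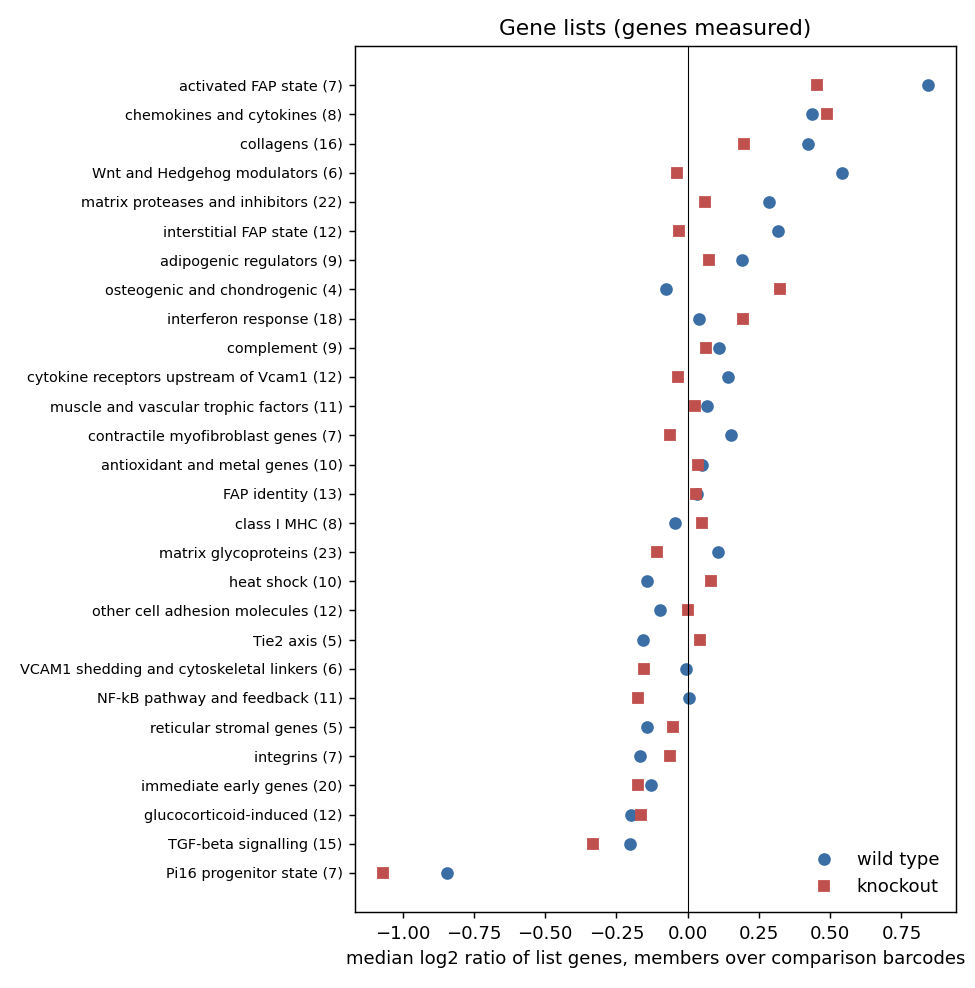
Median log2 ratio of members over comparison barcodes for gene lists (rows, with the number of genes measured) in the wild type (circles) and the knockout (squares). The Pi16 progenitor list is at the low end, at -0.84 and -1.07, and the activated FAP list is at 0.84 and 0.45.

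The activated FAP list had 7 of 10 genes measured. Cpxm1 and Tnc were higher in both libraries, and the medians were 0.84 and 0.45. Tnc, the matrix protein tenascin C, was found in 4.50% of wild type members and 1 barcode held 64.1% of its UMIs. With depth-matched comparison barcodes the list medians were 0.21 and 0.29, while those of the Pi16 list were -0.88 and -0.95. The 12 genes of the interstitial FAP state had medians of 0.32 and -0.03, and none passed in both libraries.

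Members were not uniform. In both libraries about as many had Pi16 as lacked it, 51 and 60 in the wild type and 76 and 78 in the knockout. Apoe was higher in members without Pi16, at 1068 against 560 CPM in the wild type and 835 against 276 CPM in the knockout. Fst, the activin inhibitor follistatin, went the same way, at 519 against 205 CPM and 364 against 204 CPM. Thbs4 went the other way, at 564 CPM without Pi16 against 1596 CPM with it in the wild type, and 441 against 1275 CPM in the knockout. The members with Pi16 were deeper, with medians of 10298 against 8930 UMIs and 14225 against 9118 UMIs, and the part of depth in these values was not tested.

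Collagen transcripts were higher in members with more Vcam1 UMIs. Wild type members with at least 2 Vcam1 UMIs had 23937 CPM of collagen transcripts against 19908 CPM in members with 1 and 15600 CPM in comparison barcodes. The knockout values were 31539, 28514 and 25297 CPM. Lpl followed the same order, at 2573, 1239 and 874 CPM in the wild type and 1742, 1183 and 1054 CPM in the knockout. The Pi16 list had no such order in the wild type, at 891, 752 and 1285 CPM, and the opposite one in the knockout, at 531, 555 and 1101 CPM. Members with at least 2 Vcam1 UMIs were deeper, with medians of 12476 and 14666 UMIs against 8613.5 and 9118.

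The exclusion removed 510 Vcam1-positive knockout barcodes, of which 224 held Cxcl9. Those with Cxcl9 show that part alone, with a median of 17774.5 UMIs against 11397 in knockout members. Cxcl10, a chemokine of the same receptor as Cxcl9, stood at 213 CPM there and at 5.93 CPM in knockout members. Iigp1, an interferon-induced GTPase, stood at 322 against 128 CPM, Timp1, a metalloprotease inhibitor, at 904 against 292 CPM, and Col3a1 at 14491 against 9895 CPM. Apoe and Fst were lower there, at 239 against 510 CPM and 112 against 271 CPM. Mmp3, at 558 against 417 CPM, and Cpxm1, at 815 against 583 CPM, were higher there, by steps near that of Col3a1.

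Between the libraries, 107 of the 5958 genes were at least 2-fold higher in knockout than in wild type members (1.8%) and 97 at least 2-fold lower (1.63%). The same ratio in comparison barcodes passed 2-fold for 88 higher (1.48%) and 52 lower genes (0.873%), and 45 and 31 genes were shared. Genotype, strain, animals and library preparation cannot be told apart here, and the wild type and knockout barcodes of both kinds come from the same pair of libraries.

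Of the 18 measured interferon genes, none was lower and 10 were higher by at least 1.5-fold in knockout over wild type members. The list's median log2 ratio was 0.76, but 0.14 without barcodes carrying at least 2 markers of another class and 0.38 with equal barcode weights. In comparison barcodes 11 were higher and 1 lower, with the same median. Over all genes, 6.9% were 1.5-fold higher and 5.89% lower in knockout members, against 6.08% and 3.58% in comparison barcodes. Isg15, a ubiquitin-like interferon product, stood at 124 against 28.4 CPM (log2 2.12, 1.59 to 2.70), and Iigp1 at 128 against 25.9 CPM (2.31, 1.75 to 2.90). B2m stood at 916 against 485 CPM and H2-D1 at 1285 against 657 CPM, and the class I MHC list had a median of 0.64 in members and 0.49 in comparison barcodes. Serpina3n, an acute-phase protease inhibitor, stood at 153 against 35.3 CPM, with 73.2% of the wild type UMIs on a single barcode. Plac8 stood at 142 against 14.7 CPM (3.28, 2.57 to 4.08).

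More genes of the matrix lists were higher than lower in knockout over wild type members. Of 23 matrix glycoproteins 3 were at least 1.5-fold higher and 1 lower in knockout members (median 0.03). Of 22 proteases and inhibitors 6 were higher and 2 lower (0.21), and of 16 collagens 5 were higher and 1 lower (0.26). In comparison barcodes the counts in the same order were 4 higher and 0 lower, 8 and 1, and 4 and 0. Summed over each list, knockout members stood at 24305 against 18799 CPM, 7413 against 6493 CPM and 30064 against 21419 CPM in wild type members. Mmp3 was at log2 1.82 (1.56 to 2.09) in members and 2.82 in comparison barcodes, Cpxm1 at 1.73 and 1.62, and Timp1 at 1.99 and 2.42. Sfrp4, a secreted Wnt modulator, stood at 194 CPM in knockout against 25 CPM in wild type members (2.95), and Ccbe1, a matrix protein of lymphatic growth, at 44.7 against 8.62 CPM (2.38). Ccl2 was at 2.31 in members and 3.67 in comparison barcodes. Lbh was at 2.15 and the noncoding H19 at 2.15. Bc1 and Tpm3-rs7, which have close copies elsewhere, were at 4.10 and 2.42. Cx3cr1, a chemokine receptor of monocytes, had 0 UMIs in wild type members and 297 in knockout members, at least 5.95 on the log2 scale, but 89.6% came from 1 barcode.

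**Figure D5:**
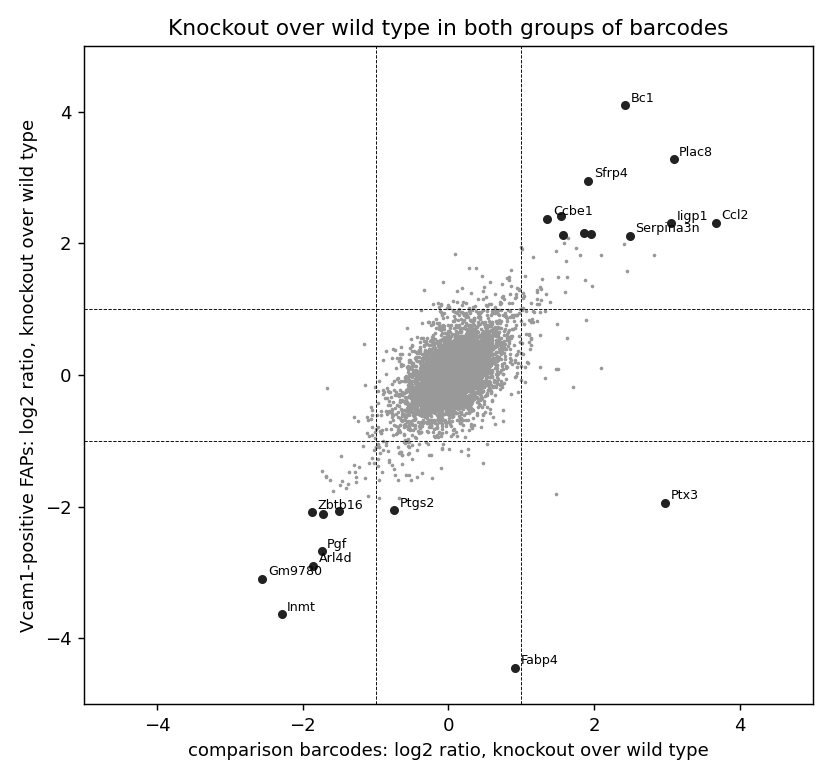
Log2 ratio of knockout over wild type in comparison barcodes (x axis) and in members (y axis) for the genes over the level filter; each point is a gene, black points are the named genes and dashed lines mark 2-fold. Inmt, Zbtb16 and Pgf lie at the lower left and Plac8, Sfrp4 and Bc1 at the upper right.

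Lower in knockout members were glucocorticoid-induced and immediate early genes. Of 12 measured glucocorticoid-induced genes, 8 were at least 1.5-fold lower and 1 higher in members, and 8 lower in comparison barcodes, with medians of -0.89 and -1.04. Zbtb16, a transcription factor, stood at 77.6 against 329 CPM (-2.08, -2.37 to -1.80), and Ddit4, an inhibitor of mTOR signalling, at 46.4 against 201 CPM (-2.11, -2.49 to -1.75). Of 20 immediate early genes 10 were lower by at least 1.5-fold in members and 12 in comparison barcodes. Klf2, a Krüppel-like factor, stood at 113 against 325 CPM in members (-1.52), and was at -0.58 in comparison barcodes.

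Inmt, a methyltransferase, stood at 21.6 against 267 CPM (-3.63, -4.14 to -3.15), and was found in 9.09% of knockout against 63.1% of wild type members. Fabp4, a fatty acid carrier of adipocytes and endothelium, was at -4.44, with 82.4% of the wild type members' UMIs on 1 barcode. Ptgs2, cyclooxygenase 2, was at -2.06 and Ptx3, pentraxin 3, at -1.94, with 46.2% and 66.7% of the wild type UMIs on 1 barcode. Gm9780 was at -3.09, Arl4d at -2.90, Pgf at -2.68 and Galnt15 at -2.06. Vegfa, another vascular growth factor, stood at 22.1 against 48.3 CPM in members (-1.13) and was at 0.01 in comparison barcodes. The difference between members and comparison barcodes in these ratios was not tested.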

How the data were processed

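The authors deposited UMI counts as 1 matrix for each group of 4 labelled samples. Cell Ranger 3.0.0, Seurat and mm10 are named in the submitters' processing notes, and the file headers carry software version 3.0.2. The step that separates cells from empty droplets was not given in the sources. No doublet caller was run. Per the labels' protocols the sort had a pulse-width gate, and an alternative left out barcodes above the 98th percentile of UMIs.

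UMI counts were summed over the barcodes of a group and scaled to CPM. Log2 ratios have exact conditional binomial 95% intervals, CPM exact Poisson and shares exact Clopper-Pearson ones. A count of 0 was taken to allow 3 counts. Genes with a mean of at least 20 CPM over the 4 groups of barcodes were described, leaving out mitochondrial genes and the 5 genes of the rule. Genes were named by size: the 14 highest and 10 lowest by mean log2 ratio among those past 1.5-fold in both libraries, the 12 highest and 10 lowest of knockout over wild type members past 2-fold, up to 4 leading genes of each of 38 lists, and 14 fixed genes. Not every gene so named is printed. The members and lists were chosen with earlier results of these data known. Calculations used Python 3.11.15, numpy 2.4.6, scipy 1.17.1 and pandas 2.3.3, and were tested on simulated data.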

Additional observations from a re-analysis of the deposited data

Results flagged for a closer look

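Of the genes over the level filter, 8 were at least 1.5-fold apart between members and comparison barcodes in opposite directions in the wild type and the knockout. The difference between the libraries was not tested for any of them. Ptx3, a secreted pattern recognition protein, was at log2 2.63 (wild type) and -2.28 (knockout), and 1 barcode held 66.7% of its UMIs in wild type members and 61.6% in knockout comparison barcodes. Saa1, an acute-phase protein, was at 1.54 and -1.74, with 48.6% of UMIs in wild type members and 56.1% in knockout comparison barcodes on 1 barcode. H2-Ab1, a class II MHC chain, was at 1.41, from 3 UMIs in wild type members, and at -6.17, with 98.2% of UMIs in knockout comparison barcodes on 1 barcode. Lgals3, a lectin abundant in macrophages, was at 0.65 and -0.75, with 57.8% of UMIs in knockout comparison barcodes on 1 barcode. The noncoding Bc1 was at -1.02 and 0.65, and 1 barcode held 43.7% of its UMIs in knockout members. Kin was at -0.72 and 0.64, Map2k7 at 0.59 and -0.65, and Pygl at -0.85 and 0.79, with no barcode over 21.4% of the UMIs of Pygl in any group.

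Vcam1 was also seen in filtered barcodes with no Pdgfra UMI, which no comparison uses: 23 of 264 in the wild type (8.71%, 5.60 to 12.8) and 31 of 149 in the knockout (20.8%, 14.6 to 28.2). Their cell types were not assigned, and the difference between the libraries was not tested.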

How the results depend on the processing

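No paired analysis was possible because nothing maps the barcodes of a library to its labelled samples. Counts of genes are given in the order higher and lower in wild type members, higher and lower in knockout members, higher and lower in both, then higher and lower in knockout against wild type members. Requiring at least 2 Vcam1 UMIs gave 455, 505, 241, 430, 67, 87, 240 and 174 genes, on 33 and 64 barcodes, and shares of 2.15% and 4.46%. A mean of at least 50 CPM gave 58, 38, 44, 71, 18, 15, 34 and 44, and one of at least 5 CPM gave 656, 716, 617, 799, 130, 139, 441 and 336. Without barcodes carrying at least 2 markers of another class, 266 genes were higher and 297 lower in the wild type, 233 higher in knockout members, and 170 higher in knockout over wild type members. Without each gene's top barcode (chosen after seeing the data) 93 genes were higher in the wild type and 19 in both. With no condition on the 4 genes, 63 genes were higher and 118 lower in the knockout, 62 were lower in both, and the shares were 17.0% and 46.3%. Equal barcode weights gave 229 higher in the knockout, and thinning gave a wild type share of 4.95%. The other 91 values of these counts and shares stayed within 1.5 times or within their interval. For all of these the cause was not tested.

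Of 2121 values of 178 gene ratios under alternatives, 1795 stayed close to the reported value, 281 moved and 45 changed sign. The sign changes in the wild type, members over comparison barcodes, were as follows. With at least 2 Vcam1 UMIs, Ifit1 was at -1.08, Myl9 at -0.35, Tnc at -2.45, Ifit3 at -0.49 and Pygl at 0.22. With no condition on the 4 genes, Ptgs2 was at -0.18, Nr4a1 at 0.10, Map2k7 at -0.15 and H2-Ab1 at -0.043. With 0 Cxcl10 UMIs, Ifit3 was at -0.48. Without barcodes above the 98th percentile of UMIs Hba-a1 was at 0.68, and without barcodes of other classes Hba-a1 was at 1.19 and Serpina3n at -2.32. Without the top barcode, Hba-a1 was at 0.34, Serpina3n at -0.97 and Ifit3 at -0.22. In the knockout, with at most 5% mitochondrial UMIs Bc1 was at -0.050, Fabp4 at 2.43, Lyz2 at 0.52 and Lgals3 at 0.45. With at least 2 Pdgfra UMIs Fabp4 was at 1.44, Lyz2 at 0.12 and Lgals3 at 0.53. With no condition on the 4 genes Ifit1 was at -0.16, Hba-a1 at 0.32, Bc1 at -0.013, H19 at 0.044 and Pygl at -0.17. Without barcodes above the 98th percentile Ccl2 was at -2.08, Ccl7 at -0.17, Fabp4 at 1.57 and Lgals3 at 0.41. Without barcodes of other classes Bc1 was at -1.26, Isg15 at -0.39, Gm9780 at 0.20, Saa1 at 2.58 and Lgals3 at 0.60. With equal weights Bc1 was at -0.080, H19 at 0.16 and Ccl8 at -0.011, and without the top barcode Lgals3 was at 0.37. Knockout over wild type members, with no condition on the 4 genes Hba-a1 was at 0.34 and Ptx3 at 0.40, and Tnc was at 2.63 with at least 2 Vcam1 UMIs and at 0.17 without barcodes above the 98th percentile. Depth limits the rule itself: a FAP with low Vcam1 or with few UMIs can be counted as a comparison barcode.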
